A study of Homo sapiens with 6 samples.

Results

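The genes described are 8 kinases of pre-mRNA splicing, taken by symbol from a table of 32896 genes. They are CLK1, CLK2, CLK3 and CLK4, SRPK1 and SRPK2, DYRK1A, and PRPF4B. The rule used names only, and all 8 were found. RNA-seq was run on BHT101, an established cell line from a human anaplastic thyroid carcinoma, in 6 libraries harvested 48 h after plasmid transfection. In 3 libraries the cells had received an SK4 plasmid, and in 3 a control plasmid. SK4 is the calcium-activated potassium channel KCa3.1, encoded by KCNN4, and the series asks which genes and splicing events lie downstream of it. The labels name neither the promoter nor the vector of the plasmids, and all cells are of 1 line. They also do not say whether the 3 libraries of a group are separate cultures, so p-values cover the spread between these libraries, which may be technical.

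SR proteins bind exons and recruit the spliceosome, and their tails of alternating arginine and serine work only when phosphorylated to the right degree. SRPK kinases phosphorylate these tails mostly in the cytoplasm, which lets SR proteins enter the nucleus, and CLK kinases phosphorylate them further inside the nucleus and release them from nuclear speckles. DYRK1A, a dosage-sensitive kinase on chromosome 21, also phosphorylates splicing factors, among many other substrates. PRPF4B is a relative of the CLK and DYRK kinases that is bound to the tri-snRNP and acts in spliceosome assembly. CLK activity also feeds back on splicing of the CLK genes themselves, which yield transcripts with a retained intron. Gene-level values add all such transcripts together.

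The 4 CLK kinases are also called LAMMER kinases, after a conserved run of residues in the kinase domain. The coding sequence around it is shown because it makes visible how these paralogues differ in base composition, a property that returns below. Each window has 93 nt, in transcript sense, from the GENCODE release 29 transcript with the longest coding sequence. Capitals mark the 33 nt of the motif. Each window is exonic and coding, and spans the junction of exons 10 and 11.
CLK1: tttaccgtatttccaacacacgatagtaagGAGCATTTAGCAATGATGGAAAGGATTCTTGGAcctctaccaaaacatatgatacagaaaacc
CLK4: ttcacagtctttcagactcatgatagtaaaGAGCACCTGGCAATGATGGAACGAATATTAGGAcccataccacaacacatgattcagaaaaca
CLK2: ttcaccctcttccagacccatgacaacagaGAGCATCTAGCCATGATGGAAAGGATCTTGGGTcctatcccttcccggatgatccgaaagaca
CLK3: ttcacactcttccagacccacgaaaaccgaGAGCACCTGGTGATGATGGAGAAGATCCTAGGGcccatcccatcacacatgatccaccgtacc

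In GRCh38 the CLK1 window lies on the minus strand at chr2:200854618-200855018, and the CLK4 window on the minus strand at chr5:178605305-178608390. That of CLK2 lies on the minus strand at chr1:155264223-155264482, and that of CLK3 on the plus strand at chr15:74628038-74628681. The motif's 11 residues are the same in CLK1, CLK2 and CLK4, and CLK3 shares 9 of them. The DNA differs more. CLK1 and CLK4 are identical at 76.3% of the 93 positions, CLK2 and CLK3 at 74.2%, and CLK1 and CLK3 at 62.4%. G and C make up 37.6% of the CLK1 window and 39.8% of the CLK4 window, against 50.5% in CLK2 and 53.8% in CLK3. Over the whole transcript the same split holds, with 46% in CLK1 and 38.1% in CLK4 against 55.5% in CLK2 and 60.8% in CLK3. The other kinases lie on the low side, with 39.4% in PRPF4B, 39.97% in DYRK1A, 41.4% in SRPK1 and 42.8% in SRPK2.

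KCNN4 was higher in the SK4 libraries, as a check of the labels. It held 184, 148 and 169 FPKM in the SK4 libraries, against 8.31, 8.26 and 8.52 FPKM in the control libraries, where FPKM is fragments scaled by gene length and library total. That is a log2 fold change of 4.23 (limma, Benjamini-Hochberg adjusted p = 8.83e-07). In bulk RNA, more cells with the plasmid and more RNA per cell cannot be told apart. The libraries held an estimated 29700000 to 38500000 fragments, and control replicate 3 was the shallowest. The treatment label of that library writes BHT102 where its cell line label writes BHT101, and it was kept as a control. Control replicate 3 and SK4 replicate 2 stood apart from the other 4 libraries, and their deviations from their group means correlated across genes (r = 0.528, genes not being independent). All 6 epithelial markers were present, with summed levels of 595.4 to 648.3 FPKM in the SK4 and 576.8 to 626.2 FPKM in the control libraries. Of the 5 leukocyte markers 1 reached 1 FPKM in 3 libraries, and the list summed to 3.56 to 4.41 FPKM in the SK4 and 3.80 to 4.61 FPKM in the control libraries. Of the 6 fibroblast markers 1 reached it, with sums of 23.5 to 31.9 FPKM in the SK4 and 22.5 to 27.6 FPKM in the control libraries. The thyroid follicular markers TG, TSHR, NKX2-1 and SLC5A5 were below 0.1 FPKM in all 6 libraries, as were the leukocyte markers PTPRC and CD3E, the fibroblast collagens COL1A1, COL1A2 and COL3A1, and the endothelial markers VWF, CDH5 and KDR.

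No splicing kinase gene was called higher or lower with the SK4 plasmid. Of the 8, 6 reached 1 FPKM in at least 3 libraries and entered the test, and 0 of these 6 had an adjusted p below 0.05 or an unadjusted p below 0.05 (limma). Over all 11139 tested genes, 0.00898% were called, which is KCNN4 alone, and 1.65%, or 184 genes, had an unadjusted p below 0.05. That second count depended on the libraries, with 419 genes without control replicate 3, 905 with library weights, 444 with a GC correction, and 565 when control replicate 3 and SK4 replicate 2 were both left out. CLK4 and DYRK1A stayed under 1 FPKM in every library and were fitted with all 32896 genes instead. Neither was called there, where the shares over all genes were 0.00304% called and 2.29% at an unadjusted p below 0.05. In none of the 8 genes did the SK4 values lie apart from the control values, which was so for 5.34% of tested genes. Counts near such a background say nothing particular about these kinases.

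CLK1 had the largest fold change in size among the 8, and it was not called. It is a nuclear kinase that hyperphosphorylates SR proteins. CLK1 was at 3.66, 2.84 and 3.36 FPKM in the SK4 libraries, against 3.41, 3.01 and 2.16 FPKM in the control libraries. The groups overlapped, and the lowest value, in control replicate 3, stood well under the other 5. The mean was 3.29 ± 0.415 FPKM with SK4 and 2.86 ± 0.638 FPKM in the control (SD, n = 3 each). The log2 fold change was 0.18 with a 95% confidence interval of -0.17 to 0.54 (limma adjusted p = 0.99997), taken on the log2(FPKM + 0.5) scale. Without control replicate 3 it was 0.026.

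CLK4, the closest relative of CLK1 in the windows above, was weakly expressed. It was at 0.72, 0.45 and 0.69 FPKM in the SK4 libraries, against 0.57, 0.65 and 0.43 FPKM in the control libraries. Here SK4 replicate 2 and control replicate 3 were the low libraries of their groups, and the groups overlapped. The log2 fold change was 0.090 (95% confidence interval -0.24 to 0.42; limma adjusted p = 0.982 without a filter on low values). With a merged exon length of 7924 nt, these levels correspond to about 101 to 209 fragments, and counting error alone gives a coefficient of variation of 9.94% at the lower end. The length by which the authors divided is not given. A shorter one, such as the 2568 nt of the transcript with the longest coding sequence, would give fewer fragments and a larger error.

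CLK2 and CLK3 were the steadiest members. CLK2, which also acts in insulin signalling and phosphorylates SR proteins, was at 6.75, 6.07 and 5.77 FPKM with SK4, against 6.08, 5.79 and 6.24 FPKM in the control. Its highest and lowest values were both SK4 libraries, and control replicate 3 was the highest of its group. The log2 fold change was 0.033 (95% confidence interval -0.13 to 0.20; limma adjusted p = 0.99997). CLK3 was at 2.11, 2.09 and 1.99 FPKM with SK4, against 2.09, 2.22 and 1.93 FPKM in the control, so that all SK4 values lay inside the control range. Its log2 fold change was -0.0081 (95% confidence interval -0.19 to 0.17; limma adjusted p = 0.99997). The highest library exceeded the lowest by 1.17-fold for CLK2 and by 1.15-fold for CLK3, against 1.36-fold to 1.69-fold for the 6 other kinases.

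SRPK1, the main cytoplasmic SR protein kinase of most tissues, was the most abundant of the 8. It was at 13.5, 10.7 and 12.5 FPKM in the SK4 libraries, against 13.3, 14.0 and 10.0 FPKM in the control libraries. Its lowest values were again control replicate 3 and SK4 replicate 2, and the SK4 values lay inside the control range. The means were 12.2 ± 1.40 FPKM with SK4 and 12.5 ± 2.14 FPKM in the control (SD, n = 3 each), with a log2 fold change of -0.020 (95% confidence interval -0.33 to 0.29; limma adjusted p = 0.99997). SRPK2, its paralogue with high expression in brain, was at 4.51, 3.73 and 4.09 FPKM with SK4, against 3.92, 4.29 and 3.32 FPKM in the control. The groups overlapped, with the same pair of libraries lowest. Its log2 fold change was 0.089 (95% confidence interval -0.16 to 0.33; limma adjusted p = 0.99997).

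DYRK1A, which primes many proteins for other kinases and holds cells in quiescence through the DREAM complex, was at 0.58, 0.47 and 0.56 FPKM in the SK4 libraries, against 0.63, 0.62 and 0.43 FPKM in the control libraries. The SK4 values lay inside the control range. The log2 fold change was -0.028 (95% confidence interval -0.29 to 0.24; limma adjusted p = 1 without a filter on low values). PRPF4B was at 1.86, 1.18 and 1.79 FPKM with SK4, against 1.75, 1.80 and 1.21 FPKM in the control. SK4 replicate 2 and control replicate 3 stood well under the other 4 libraries, which lay between 1.75 and 1.86 FPKM. Its log2 fold change was 0.012 (95% confidence interval -0.39 to 0.41, limma adjusted p = 0.99997). On the log2(FPKM + 0.5) scale that was the widest interval of the 8. With 0.1 FPKM added in place of 0.5, the interval was -0.49 to 0.52 for PRPF4B, and that of CLK4 was wider, at -0.37 to 0.65.

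**Figure D1:**
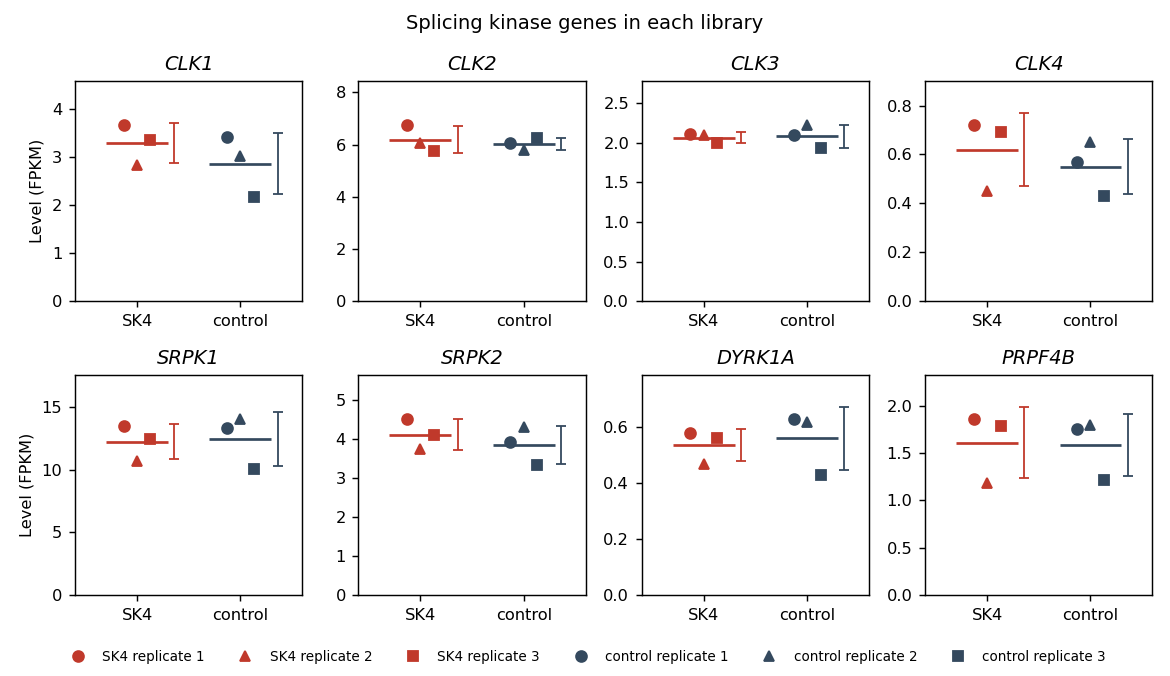
Level of each splicing kinase gene in FPKM (y axis, from 0, own scale per gene) in the SK4 (left, red) and control (right, dark) libraries. Points are single libraries with the marker giving the replicate, the line is the mean and the bar beside it the SD (n = 3); the SK4 and control points overlap for all 8 genes, and SK4 replicate 2 and control replicate 3 are the low points for 6 of them.

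With all 6 libraries the intervals were narrow. For all 6 tested kinases the 95% confidence interval of the fold lay inside 1.5-fold in either direction, as it did for 96.8% of all tested genes. The upper bound for CLK1 was 1.46-fold. It passed 1.5-fold in 5 other fits, at 0.62 on the log2 scale with a pseudocount of 0.1 and at 0.67, 0.66, 0.68 and 0.63 without control replicate 1, control replicate 2, SK4 replicate 2 and SK4 replicate 3. For CLK4, fitted without the filter, it was 0.65 with a pseudocount of 0.1. CLK4 and DYRK1A lay near the 0.5 FPKM added before the logarithm, which shrinks their fold changes and intervals. With a pseudocount of 0.1 the log2 fold change was 0.14 for CLK4 (95% confidence interval -0.37 to 0.65) and -0.041 for DYRK1A (-0.46 to 0.38). With all libraries the lower bounds for PRPF4B and SRPK1 were 0.765-fold and 0.793-fold. CLK2 was bounded most closely, between 0.913-fold and 1.15-fold. The fold change was positive in 4 of the 6 tested kinases, and its median was 0.023 on the log2 scale, beside a median of 0.011 over all tested genes.

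**Figure D2:**
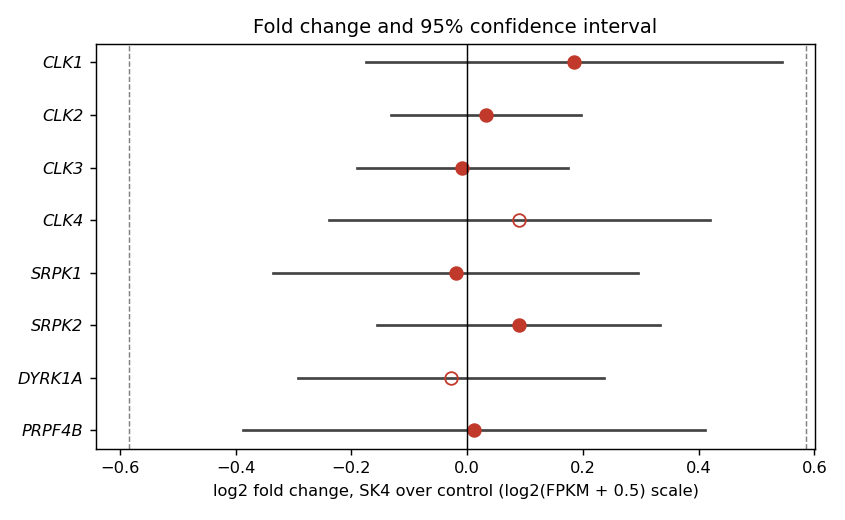
The log2 fold change of SK4 over control for each kinase gene (point) with its 95% confidence interval (line), on the log2(FPKM + 0.5) scale. Filled points come from the fit to the 11139 tested genes and open points from the fit without a filter. Every interval spans 0 and lies inside the dashed lines at 1.5-fold on this scale. For the open points, CLK4 and DYRK1A, the added 0.5 is near the level itself and shrinks fold change and interval.

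The order of levels was nearly the same in every library. SRPK1 came first, at 10.0 to 14.0 FPKM, then CLK2 at 5.77 to 6.75 FPKM, SRPK2 at 3.32 to 4.51 FPKM, CLK1 at 2.16 to 3.66 FPKM, CLK3 at 1.93 to 2.22 FPKM and PRPF4B at 1.18 to 1.86 FPKM. DYRK1A at 0.43 to 0.63 FPKM and CLK4 at 0.43 to 0.72 FPKM came last. DYRK1A stood above CLK4 in SK4 replicate 2 and control replicate 1, was level with it in control replicate 3, and stood below it in the other 3 libraries. Across libraries the ranges of SRPK2 and CLK1 overlapped, as did those of CLK1 and CLK3, and of CLK4 and DYRK1A, although SRPK2 exceeded CLK1 and CLK1 exceeded CLK3 within every library. CLK4 and DYRK1A alone changed order. The other neighbours did not overlap. The mean level of SRPK1 was above that of 72.5% of the tested genes, and that of CLK2 above 54.8%. For SRPK2 the share was 42.4%, for CLK1 34.6%, for CLK3 22.6% and for PRPF4B 14.7%. Such an order depends on the gene length by which the authors divided, and the sources used here do not give it.

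Ratios between members, which cancel any shift common to a pair, did not separate the groups either. SRPK1 exceeded SRPK2 by 2.97 ± 0.0903-fold with SK4 and by 3.23 ± 0.193-fold in the control (SD, n = 3 each; exact two-sided permutation p = 0.2, adjusted over 3 ratios 0.6). CLK1 exceeded CLK4 by 5.42 ± 0.778-fold with SK4 and by 5.21 ± 0.695-fold in the control (exact two-sided permutation p = 0.6, adjusted 0.6). The CLK1 level was 0.531 ± 0.0581 of the CLK2 level with SK4 and 0.476 ± 0.114 of it in the control (exact two-sided permutation p = 0.6, adjusted 0.6). With 3 against 3 libraries the smallest p this test allows is 0.1.

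What the kinases shared was a difference between libraries that cut across the groups. In 6 of the 8 genes, CLK1, CLK4, SRPK1, SRPK2, DYRK1A and PRPF4B, the lowest 2 libraries were control replicate 3 and SK4 replicate 2. These are the 6 kinases with 38.1% to 46% GC, and the exceptions, CLK2 and CLK3, are the 2 above 50%. SK4 replicate 2 lay between -0.31 and -0.076 of the 6-library mean on the log2 scale for the 6 genes, and at -0.0080 for CLK2 and 0.011 for CLK3. Control replicate 3 lay between -0.41 and -0.17 for the 6 genes, at 0.028 for CLK2 and at -0.081 for CLK3. It was also the lowest library of CLK3. Across the 6 libraries the log2 levels of the 6 genes correlated pairwise at r = 0.785 to 0.977 (15 pairs, n = 6 libraries). All genes of a library share its depth and composition, so these pairs are not independent. CLK2 correlated with the 6 genes at -0.157 to 0.119, and CLK3 at 0.426 to 0.726.

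**Figure D3:**
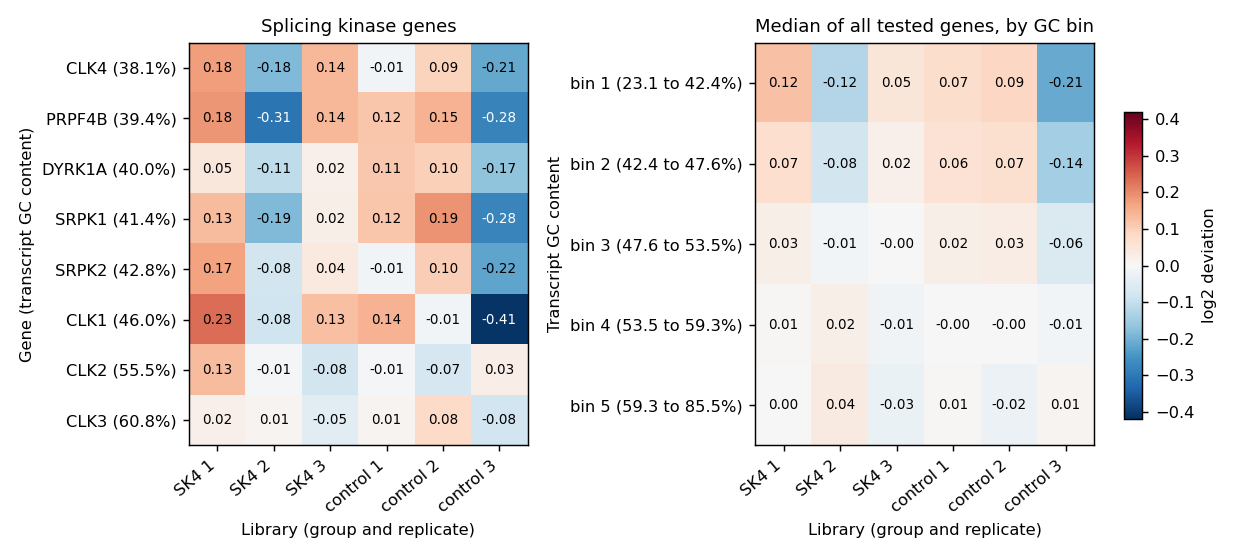
Deviation of each library (columns, SK4 left of control) from the 6-library mean in log2 units, for the kinase genes in order of transcript GC content (left) and for the median tested gene in each of 5 equal bins of GC content (right). Blue cells below the mean gather in SK4 replicate 2 and control replicate 3 for the GC-poor kinases and for the GC-poor bins; CLK2 and CLK3, at the bottom of the left panel, lie between -0.081 and 0.028 in these libraries.

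The same gradient ran through all tested genes. The tested genes were divided into 5 equal bins by GC content. In the bin with the least GC, up to 42.4%, the median deviation was -0.12 in SK4 replicate 2 and -0.21 in control replicate 3. In the bin with the most GC, from 59.3%, it was 0.039 and 0.011 in these libraries. CLK4, PRPF4B, DYRK1A and SRPK1 belong to the lowest bin, SRPK2 and CLK1 to the second, CLK2 to the fourth and CLK3 to the highest. In control replicate 3, after the median of its own GC bin was subtracted, CLK4 was left at -0.0010, DYRK1A at 0.044, SRPK1 at -0.063, PRPF4B at -0.067 and SRPK2 at -0.079. The GC-rich CLK2 was left at 0.039 in that library and CLK3 at -0.091. CLK1 was left at -0.27 there, and in SK4 replicate 2 PRPF4B was left at -0.18. The GC value depends on the transcript taken. By the longest annotated transcript in place of the one with the longest coding sequence, CLK2 holds 52.3% and CLK3 46.5%, and the 6 other kinases 35.7% to 45.0%. The lowest of these is CLK1, whose longest transcript has a retained intron.

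**Figure D4:**
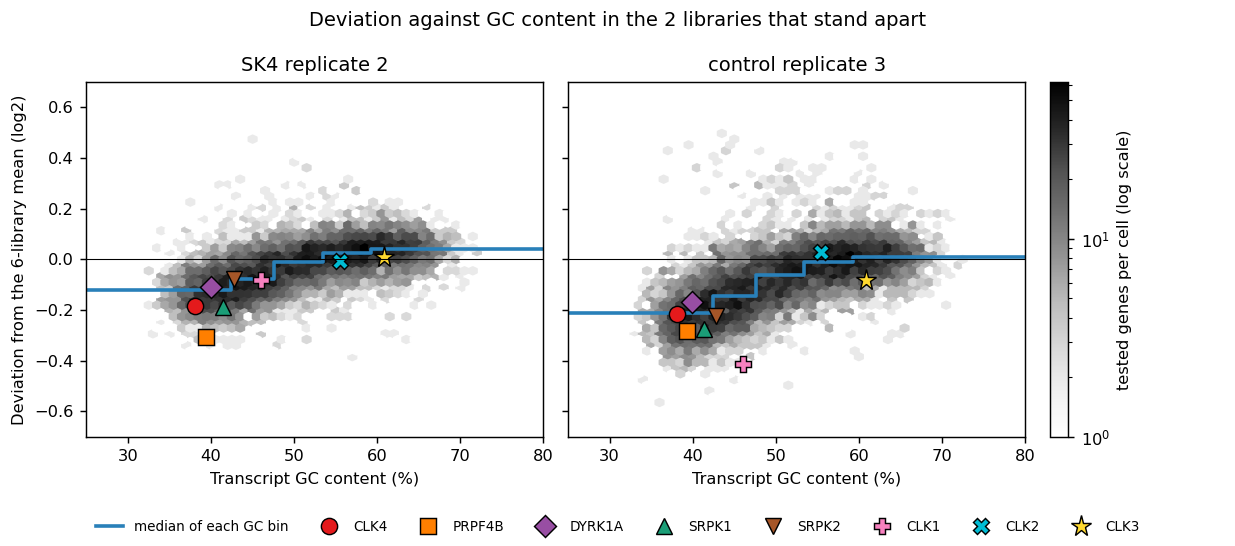
Deviation from the 6-library mean (y axis, log2) against transcript GC content (x axis, %) in SK4 replicate 2 (left) and control replicate 3 (right). Grey cells count the tested genes, the blue steps are the medians of the GC bins and the symbols are the kinase genes; 8 genes in SK4 replicate 2 and 24 in control replicate 3 lie beyond the y axis, and CLK1 in control replicate 3 and PRPF4B in SK4 replicate 2 lie furthest under the steps.

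When a smooth trend on GC content was removed from each library, a setting added after the data were seen, the spread within groups shrank for the GC-poor kinases. The residual SD of SRPK1 was 0.076 with this correction and 0.21 without it, on the log2 scale. That of DYRK1A was 0.033 and 0.13, that of SRPK2 0.047 and 0.15, that of CLK4 0.063 and 0.18, and that of PRPF4B 0.12 and 0.26. For CLK1 it was 0.15 and 0.23. CLK2 (0.083 and 0.084) and CLK3 (0.067 and 0.063) hardly moved, and over all tested genes the median residual SD was 0.068 and 0.095. With the narrower spread the kinases still were not called. CLK1 had a log2 fold change of 0.18 (95% confidence interval -0.046 to 0.40; limma adjusted p = 0.99955), SRPK2 of 0.071 (-0.044 to 0.19) and SRPK1 of -0.044 (-0.17 to 0.081).

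Which library was left out moved the GC-poor kinases most. Without control replicate 3 the log2 fold changes of SRPK1, PRPF4B and DYRK1A were -0.16, -0.12 and -0.12, and those of CLK4 and SRPK2 were 0.0050 and -0.00072. Without SK4 replicate 2 PRPF4B was at 0.17, CLK4 at 0.20 and SRPK2 at 0.15. CLK3 kept between -0.051 and 0.031 over the 6 fits, and CLK2 between -0.026 and 0.079. In none of these fits was a kinase called.

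**Figure D5:**
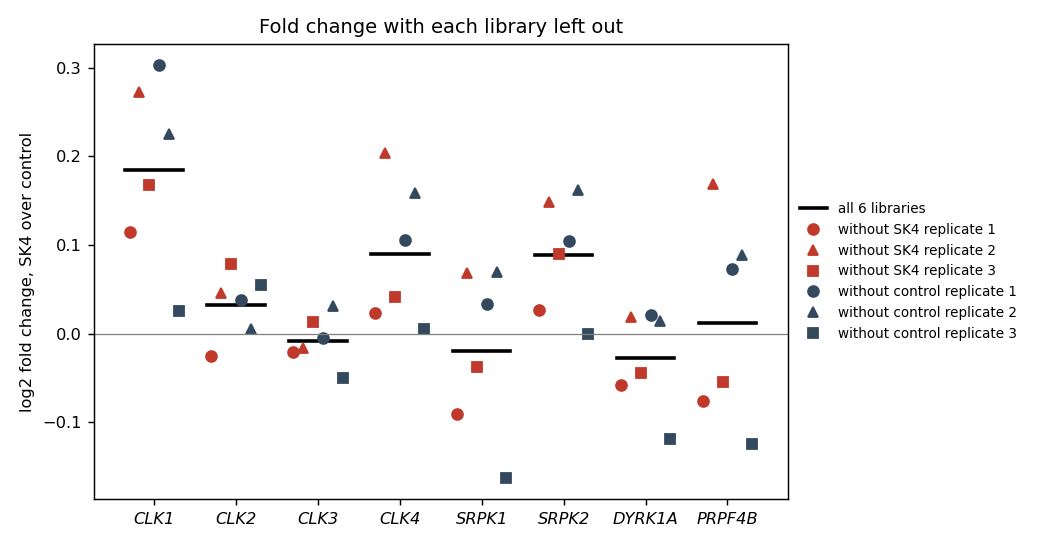
The log2 fold change of SK4 over control for each kinase gene with all 6 libraries (black line) and with each library left out in turn (red symbols, an SK4 library; dark symbols, a control library; the marker gives the replicate). The symbols spread least for CLK3, and for CLK1 the fit without control replicate 3 lies lowest at 0.026.

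Many other genes shared the library pattern of the GC-poor kinases. By Pearson correlation of log2 levels over the 6 libraries, 19.7% of the tested genes reached 0.9 with SRPK1, 17.5% with DYRK1A, 15.3% with PRPF4B, 11.8% with SRPK2, 9.70% with CLK1 and 9.17% with CLK4. For CLK3 the share was 1.62% and for CLK2 0.332%. The nearest to SRPK1 were MCM10, a replication initiation factor (r = 0.9996), PCMT1, a protein repair methyltransferase (0.9994) and MDN1, a ribosome assembly ATPase (0.9992). The nearest to CLK1 were FRS2, an adaptor of FGF receptors (0.9962), HMMR, a hyaluronan receptor that binds the spindle (0.9959), and AGFG1 (0.9954). HDAC2, a histone deacetylase, was nearest to PRPF4B (0.9978), HNRNPF, an hnRNP splicing regulator, to DYRK1A (0.9979), E2F6, a transcriptional repressor, to SRPK2 (0.9972), and PPIL1, a spliceosomal isomerase, to CLK4 (0.9971). H2AX, a histone variant marking DNA breaks, was nearest to CLK2 (0.9810), and CHAC2, a glutathione-degrading enzyme, to CLK3 (0.9866). In GC content, FRS2 held 36.9%, HDAC2 38.2%, E2F6 44.25%, PPIL1 45.5%, MCM10 47.2% and HNRNPF 48.0%. AGFG1 held 51.2%, H2AX 66.4% and CHAC2 36.7%, so the gene nearest to the GC-rich CLK3 was GC-poor. These names are the highest of 11139 correlations over only 6 libraries, and shared regulation was not tested.

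The genes around these kinases in the pathway also showed no change that passed the test. Over 7 lists with 104 genes, 89 were tested, and 0 were called higher, 0 lower, and 0 had an unadjusted p below 0.05 (limma), beside 0.00898% called and 1.65% below 0.05 over all tested genes. All 89 had an interval inside 1.5-fold, as had 96.8% of all tested genes, 48 had a positive fold change, and their median log2 fold change was 0.0032. The 13 tested SR proteins, substrates of CLK and SRPK kinases, had 7 positive fold changes and a median of 0.0042. They ran from SRSF6 at -0.031 to SRSF11 at 0.035. SRSF6 was at 29.6, 25.9 and 27.5 FPKM with SK4, against 30.9, 29.5 and 24.8 FPKM in the control. The SR protein list deviated by a median of -0.11 in SK4 replicate 2 and -0.19 in control replicate 3.

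Of the other proteins with arginine-serine domains 18 were tested, with a median log2 fold change of 0.0024. Among them SCAF11 had the highest value, at 1.91, 1.38 and 1.88 FPKM with SK4, against 1.54, 1.69 and 1.13 FPKM in the control (log2 fold change 0.19, limma adjusted p = 0.99997). CLASRP, which binds CLK4, had the lowest, a log2 fold change of -0.059. Relatives of the kinases had 8 tested genes and a median of -0.0094, from HIPK2 at -0.070 to HIPK3 at 0.095. SRPK3, the muscle SRPK, did not exceed 0.05 FPKM in any library, and DYRK3, which dissolves condensates, stayed between 0.59 and 0.69 FPKM. CDK11B, a kinase of transcription and splicing, was the most abundant relative, at 9.08 to 10.3 FPKM.

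The chaperones and import factors of SRPK and SR proteins had 10 tested genes and a median of 0.0085. TNPO3, the importin of phosphorylated SR proteins, was the lowest of them, at 25.1, 21.5 and 24.7 FPKM with SK4, against 25.7, 26.2 and 21.4 FPKM in the control (log2 fold change -0.037). SAFB2, a nuclear matrix protein, was the highest at 0.066. Phosphatases that oppose the kinases had 8 tested genes and a median of 0.022, from PPP1CA, a catalytic subunit of protein phosphatase 1, at -0.037 to PPP2CA, one of protein phosphatase 2A, at 0.056. The tri-snRNP, to which PRPF4B binds, had 18 tested subunits and a median of -0.0086, with 6 positive. SNRNP27 was highest at 0.10. PPIH was lowest at -0.048, and its SK4 values of 9.89, 9.34 and 9.73 FPKM lay under its control values of 10.1, 9.93 and 9.96 FPKM, without a call. Partners and substrates of DYRK1A had 14 tested genes and a median of 0.038, from RBL1, the p107 pocket protein, at -0.062 to LIN54, a DNA-binding subunit of DREAM, at 0.099.

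The annotation sets limits on what a gene-level value of these kinases holds. In GENCODE release 29, 8 of 15 CLK1 transcripts and 7 of 15 CLK4 transcripts are annotated with a retained intron, against 8 of 27 for CLK3 and 0 of 7 for CLK2. SRPK1 has 4 of 13, SRPK2 2 of 15, DYRK1A 4 of 24 and PRPF4B 1 of 9. In GRCh38, CLK1 lies at chr2:200853009-200864744, CLK2 at chr1:155262868-155278491, CLK3 at chr15:74598500-74645414 and CLK4 at chr5:178602664-178630615. SRPK1 lies at chr6:35832966-35921342, SRPK2 at chr7:105110704-105399308, DYRK1A at chr21:37365573-37526358 and PRPF4B at chr6:4021267-4064983. CLK2 overlaps HCN3 on the opposite strand, which reached 2.29 FPKM, CLK3 overlaps EDC3, which reached 7.15 FPKM and so exceeded CLK3, and SRPK2 overlaps KMT2E, which reached 2.09 FPKM. DYRK1A overlaps the antisense gene AP001437.1, which reached 0.61 FPKM, within the range of DYRK1A itself. CLK1 overlaps RF00019 on its own strand, a short RNA that reached 0.58 FPKM. These overlaps were taken over whole gene spans, introns included, and shared exons were not examined. The libraries mark the strand, but the sources used here do not say whether the counting used it. Reads from any exonic stretch that such a pair shares may therefore have been counted for either gene. Of the stretches of 100 nt in the CLK2 transcript, 1.21% also occur in the pseudogene CLK2P1. In the PRPF4B transcript 0.533% of such stretches also occur in BX119904.1. In the transcripts of CLK1, CLK3, CLK4, SRPK1, SRPK2 and DYRK1A none occurs in a transcript of another annotated gene. Only the transcript with the longest coding sequence of each kinase was searched this way, and its other annotated exons were not. Alternative splicing of the kinases or of their targets was not analysed here.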

How the data were processed

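Poly(A) RNA of BHT101 cells was sequenced as strand-marked paired-end libraries, per the labels' protocols. The build was GRCh38 and HISAT2 was among the tools, per the submitters' processing notes. The sources used here name neither the counting tool nor the annotation release. What the authors deposited is a single FPKM table with a column for each library. FPKM as a unit is scaled for depth and length and not for GC content. Whether the unnamed counting tool applied a correction for GC content is not known here. What causes the library differences that follow GC content was not tested. Samples were grouped by title. The members, gene lists and alternatives were chosen with earlier results of these data known.

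The filter kept genes that reached 1 FPKM in 3 or more libraries. They were tested on log2(FPKM + 0.5) with limma 3.58.1 in R 4.3.3 (trended, robust prior variance; group as the only term), with Benjamini-Hochberg adjustment across every tested gene and a threshold of 0.05. CLK4 and DYRK1A came from the same fit without the filter. The fit was tested on simulated data with planted changes and noise drawn independently for each gene. That setting lacks the library pattern shared across genes here, so it does not show how the fit handles such a pattern. No count model was used, since the unit is FPKM. Depth was estimated from the low values of 561 single-exon genes shorter than 160 nt, with 169 to 205 values used per library. The depth taken was the one at which most of them were whole multiples of 1 fragment within 0.1. The share was 99.4% to 99.5%, which is no separate check, since the search maximised it. The depth covers counting error only. GC content came from the GENCODE release 29 transcript with the longest coding sequence (99.3% of tested genes matched). Named genes are the 8 members, the highest and lowest tested member of each list, and the 3 most alike genes per member, of which some are printed. Genes named for other reasons, the 3 ratios and the GC bound of 50% were chosen after values were seen.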

Additional observations from a re-analysis of the deposited data

How the results depend on the processing

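None of the kinases was called in any of 19 alternative fits or thresholds, and KCNN4 stayed called in every fit (log2 fold change 4.16 to 4.32 with 1 library left out). Of 136 kinase fold changes recomputed, 24 could not change by construction; of the other 112, 96 kept their sign and 16 did not. PRPF4B changed sign with quantile normalisation (-0.0056), library weights (-0.0017) and the GC correction (-0.024). With 1 library left out the log2 fold changes ran from 0.026 to 0.30 for CLK1, -0.026 to 0.079 for CLK2, -0.051 to 0.031 for CLK3, -0.16 to 0.070 for SRPK1, -0.00072 to 0.16 for SRPK2 and -0.12 to 0.17 for PRPF4B, with a median over the 6 of -0.026 to 0.11. Without a filter they ran from 0.0050 to 0.20 for CLK4 and -0.12 to 0.021 for DYRK1A. The cause was not tested. Without both control replicate 3 and SK4 replicate 2 the value was 0.11 for CLK1, -0.058 for CLK3 and -0.072 for DYRK1A (95% confidence interval -0.14 to -0.0042, limma adjusted p = 0.699), whose interval alone among the kinase fits left out 0; 4 genes were called there over all, none a kinase. Whether equal replicate numbers pair the libraries is not stated. Deviations correlated at 0.306, -0.41 and -0.154 for the same number. These values cannot decide it, since the pattern shared by control replicate 3 and SK4 replicate 2 (r = 0.528) shapes them. With the replicate block 0 kinases were called, with a median log2 fold change of 0.023. At 5 FPKM only CLK2 and SRPK1 remain testable. The GC correction and the fit without both libraries were chosen after seeing the data. By merged exon length, depth limits CLK4 most (counting error 9.94% at its lowest), then PRPF4B (5.95%), CLK1 (5.49%) and DYRK1A (5.43%). These errors and their order depend on the gene length used by the authors, which is not given, and shorter lengths would make the errors larger.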
